A study of Drosophila melanogaster with 12 samples.

Results

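The testis of Drosophila is wrapped in a sheath that contains a thin layer of muscle, and 10 contractile genes of muscle were followed across 4 genotypes of testes. The genes were Mlc1, Mlc2, Mhc, Act87E, Act57B, Prm, Tm2, up, wupA and TpnC4, and every probe set that the annotation of the array gives to exactly 1 of them was taken. This gave 8 probe sets of 7 genes, out of 18769 Drosophila probe sets in all. No probe set carries the symbol of Mhc (myosin heavy chain), Act57B (a muscle actin) or wupA (troponin I) alone, and these genes were not analysed here. The genes had been selected on their measured levels in these arrays. Their differences between genotypes are therefore a description, and the limma calls of them below are not read as tests.

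Muscle contracts by sliding thick filaments of myosin along thin filaments of actin. On the thin filament, tropomyosin and the troponin complex keep myosin off actin until calcium binds troponin C. In insects the thick filament has a core of paramyosin, and the head of each myosin carries an essential and a regulatory light chain. The muscle layer of the testis sheath is of somatic origin, while all 3 perturbations of the study affect a transcription program of the germ line.

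RNA was taken from whole testes of 1-day-old adults kept at 25 °C, dissected free of seminal vesicles and accessory glands, and about 250 ng of total RNA was used per array. Med22RNAi testes (3 arrays) carried an RNAi hairpin against Med22, a subunit of the coactivator Mediator, expressed with UAS-Dicer2 under Bam-Gal4, a driver active in late spermatogonia and spermatocytes. The aly testes (3 arrays, aly2/aly5P) lack a subunit of tMAC, a testis form of a Myb-containing complex, and the sa testes (3 arrays, sa1/sa2) lack a testis form of a TFIID subunit (tTAF). The wild type testes (3 arrays) carry the label y,w, although the methods point to published arrays of red,e. Spermatocytes of Med22RNAi, aly and sa testes stop before the meiotic divisions. The 9 arrays of the other genotypes came from earlier work, so that an effect of Med22 and one of the newer set of arrays cannot be told apart. Testes with the driver but without the hairpin were not analysed here. Separate animals are not stated for all arrays, so the spread between them, and the p-values, may be technical. Med22 has no probe set with its symbol alone and was not analysed here. The transcript of sa was at a mean log2 level of 5.85 in sa testes and 10.84 in wild type, while that of aly was at 7.45 in aly testes and 6.56 in wild type.

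Each value is a log2 signal of 1 probe set after GCRMA, and the lowest value on every array was 2.11. Array medians were 4.15 to 4.25 in Med22RNAi, 3.07 to 3.11 in aly, 3.91 to 4.02 in sa and 3.66 to 3.80 in wild type, and arrays of 1 genotype correlated at 0.983 to 0.997. If the medians were set equal, every log2 fold change against wild type would shift, by -0.46 for Med22RNAi, 0.64 for aly and -0.24 for sa. Transcripts of neighbouring organs were present in spite of the dissection. The summed signal of 12 accessory gland genes was 16200 to 64220 in Med22RNAi, 8656 to 13100 in aly, 16230 to 39340 in sa and 17770 to 142300 in wild type, highest in wild type replicate 1. Dup99B, a peptide gene of the ejaculatory duct, was at 9.06 to 13.10 in Med22RNAi, 3.51 to 9.12 in aly, 4.71 to 7.38 in sa and 8.93 to 14.59 in wild type, highest in Med22RNAi replicate 1 and wild type replicate 1 within their genotypes. The muscle that lies over these organs was not labelled separately, so the samples do not tell sheath muscle from muscle carried over with them. In bulk testis RNA, moreover, fewer cells of a type and less RNA per cell cannot be told apart.

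In Med22RNAi testes most of the contractile genes lay above their levels in the other 3 genotypes. The exception was the actin gene Act87E, which was highest in wild type. The aly and sa testes overlapped with wild type for the genes of the thick filament, for tropomyosin and for troponin T.

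The thick filament was represented by both light chains and by paramyosin. Mlc2 encodes the regulatory light chain of muscle myosin. Its log2 levels were 10.10, 10.03 and 9.53 on the Med22RNAi arrays, 5.57, 4.30 and 3.57 on the aly arrays, 5.76, 5.06 and 7.31 on the sa arrays and 6.92, 3.94 and 5.73 on the wild type arrays. Every Med22RNAi array lay above every array of the other genotypes, whose ranges overlapped one another. The log2 fold change of Mlc2 against wild type was 4.36 in Med22RNAi, -1.05 in aly and 0.52 in sa (standard error 0.86, n = 3 arrays per genotype). No member varied more within wild type, where Mlc2 had an SD of 1.50.

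Mlc1 encodes the essential light chain of muscle myosin. It was at 12.23, 12.17 and 11.75 in Med22RNAi, 10.31, 9.63 and 9.69 in aly, 9.52, 9.61 and 10.29 in sa and 10.77, 9.86 and 10.51 in wild type. Again the 3 Med22RNAi arrays stood above all others, and the remaining genotypes overlapped. Against wild type the log2 fold change of Mlc1 was 1.67 in Med22RNAi, -0.51 in aly and -0.57 in sa (standard error 0.31). Mlc1 and Mlc2, which form part of the same myosin, thus differed in the size of their change in Med22RNAi.

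Prm encodes paramyosin and, from an internal promoter, miniparamyosin, and it had 2 probe sets. The first (1628105_a_at), which matches several transcripts of 1 gene, read 11.50, 11.77 and 11.05 in Med22RNAi, 8.41, 8.31 and 7.24 in aly, 7.74, 8.04 and 8.98 in sa and 9.13, 7.43 and 8.24 in wild type. The second (1632854_s_at), of a type that can match transcripts of more than 1 gene, read 8.97, 8.94 and 8.25 in Med22RNAi, 7.70, 7.45 and 6.81 in aly, 6.76, 6.77 and 8.12 in sa and 8.69, 7.07 and 7.64 in wild type. With the first probe set the Med22RNAi arrays lay above all wild type arrays, and with the second they overlapped them, although both put them above all aly and all sa arrays. The log2 fold changes of Prm in Med22RNAi against wild type were 3.17 (standard error 0.52) and 0.92 (standard error 0.51). In aly they were -0.28 and -0.48, and in sa -0.01 and -0.58. Which transcripts of Prm each probe set reads was not tested.

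Of the thin filament, tropomyosin and troponin T followed the light chains. Tm2, a tropomyosin gene, was at 9.31, 9.70 and 9.20 in Med22RNAi, 8.05, 7.91 and 7.49 in aly, 6.97, 7.82 and 7.996 in sa and 8.74, 7.46 and 8.17 in wild type. The lowest Med22RNAi array was above the highest array of every other genotype. Its log2 fold change was 1.28 in Med22RNAi, -0.30 in aly and -0.53 in sa against wild type (standard error 0.37).

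The gene up encodes troponin T, which links the troponin complex to tropomyosin. It read 9.79, 9.81 and 9.32 in Med22RNAi, 8.70, 8.23 and 8.03 in aly, 8.17, 8.52 and 9.16 in sa and 8.93, 7.37 and 7.97 in wild type. The Med22RNAi arrays stood above the rest, and sa replicate 3 came closest to them. The log2 fold change of up was 1.55 in Med22RNAi, 0.23 in aly and 0.53 in sa (standard error 0.41).

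TpnC4, a troponin C gene known mainly from flight muscle, had another pattern. Its levels were 8.33, 8.56 and 8.69 in Med22RNAi, 3.13, 5.38 and 3.64 in aly, 2.60, 2.42 and 2.54 in sa and 2.37, 2.31 and 2.57 in wild type. All sa and wild type arrays were below a log2 of 3, near the lowest value, so folds against them are bounds computed with that group at 3. TpnC4 was at least 46.1-fold higher in Med22RNAi than in wild type or sa, and at least 2.07-fold higher in aly than in either. Among the aly arrays replicate 2 was the highest and replicate 1 the lowest.

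Act87E, a muscle actin gene, was the member that was lower in Med22RNAi than in wild type. It was at 12.06, 11.72 and 11.33 in Med22RNAi, 9.83, 9.07 and 8.78 in aly, 10.92, 11.04 and 11.75 in sa and 13.50, 13.36 and 13.34 in wild type. All 9 arrays of Med22RNAi, aly and sa were below the 3 wild type arrays, Med22RNAi and sa overlapped, and aly was lowest without overlap. The log2 fold change of Act87E was -1.70 in Med22RNAi, -4.17 in aly and -2.17 in sa (standard error 0.32). Its probe set (1636348_s_at) is of the type that can match more than 1 gene, and how far it also reads other actin transcripts was not tested. Its 3 wild type arrays differed by little (SD 0.09), whereas those of Mlc1, Mlc2, Prm, Tm2 and up had SDs of 0.47 to 1.50.

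**Figure D1:**
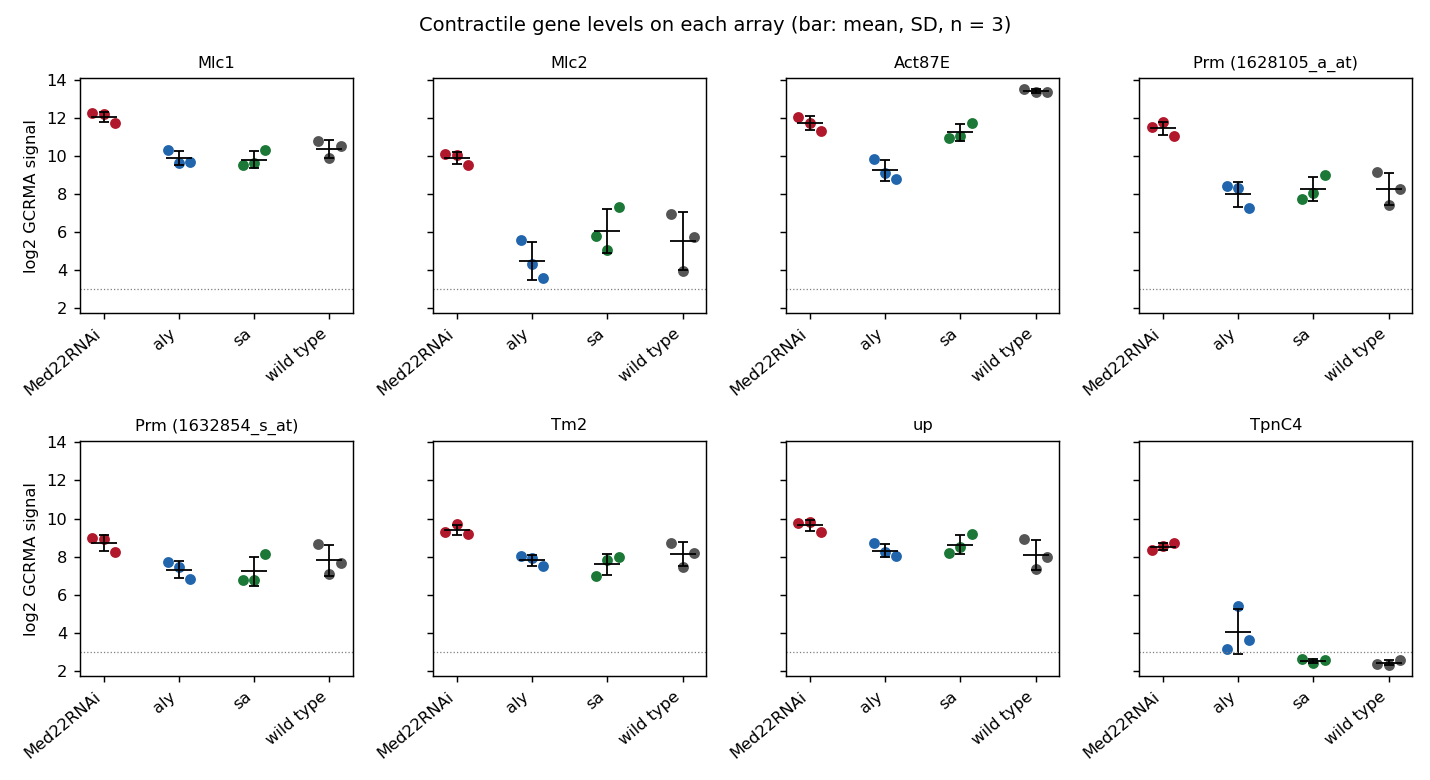
Log2 GCRMA signal (vertical axis) of the 8 probe sets of contractile genes on each of the 12 arrays, by genotype, with the mean and SD of 3 arrays as bars and a dotted line at a log2 of 3. The Med22RNAi mean is highest in every panel but that of Act87E, in which wild type is highest at 13.34 to 13.50, and the second probe set of Prm overlaps with wild type.

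Counted over the 8 probe sets, 6 had every Med22RNAi array above every wild type array, where 31.1% of all probe sets did. One probe set, that of Act87E, had every Med22RNAi array lower, and the second one of Prm overlapped. All 8 had every Med22RNAi array above every aly array, against 24.3% of all probe sets, and 7 had every Med22RNAi array above every sa array, against 21.6%, with Act87E overlapping. Between aly and wild type 6 of the 8 probe sets overlapped, TpnC4 was higher on every aly array, and Act87E was lower on every aly array, as were 16.9% of all probe sets. Between sa and wild type 7 overlapped and Act87E was lower on every sa array, as were 15.5% of all probe sets. The shares of all probe sets that overlapped, or that were higher on every aly array, are not given here. For that reason, and since the genes were selected on these levels, nothing is read from these counts.

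With a call set at 4-fold or more and an adjusted p under 0.05, limma called 3 of the 8 probe sets higher in Med22RNAi than in wild type (Mlc2, the first of Prm, and TpnC4), with 11.3% of all probe sets called higher. It called 0 lower, with 9.02% of all called lower, although Act87E was lower at an unadjusted p under 0.05. In aly 0 were called higher, with 1 (TpnC4) higher at an unadjusted p under 0.05, against 14.3% of all called higher. Act87E was the 1 probe set called lower in aly, against 10.3% of all. In sa 0 were called higher, with 0 also at an unadjusted p under 0.05, against 9.52% of all, and Act87E was again the 1 called lower, against 7.69%. These calls too are a description, from which nothing is read, since the genes were selected on these levels. The 3 comparisons share their wild type arrays.

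The median log2 fold change over the 7 genes, each by its probe set of highest mean, was 1.67 in Med22RNAi, -0.30 in aly and -0.01 in sa. Among the 8039 probe sets with a mean log2 level of at least 6 the medians were 0.64, 0.93 and 0.80 in the same order of genotypes. Thus the median contractile gene lay above the median of these probe sets in Med22RNAi and below it in aly and sa. With array medians set equal, the median of the 7 genes was 1.21 in Med22RNAi, 0.34 in aly and -0.25 in sa, so that its direction in aly depended on the scale. Without wild type replicate 1 the medians were 1.97 in Med22RNAi, 0.004 in aly and 0.08 in sa. Directly compared, the median over the 7 genes was 2.47 for Med22RNAi against aly, with a range of 1.32 to 5.41, and 2.24 for Med22RNAi against sa, with a range of 0.47 to 6.005.

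**Figure D2:**
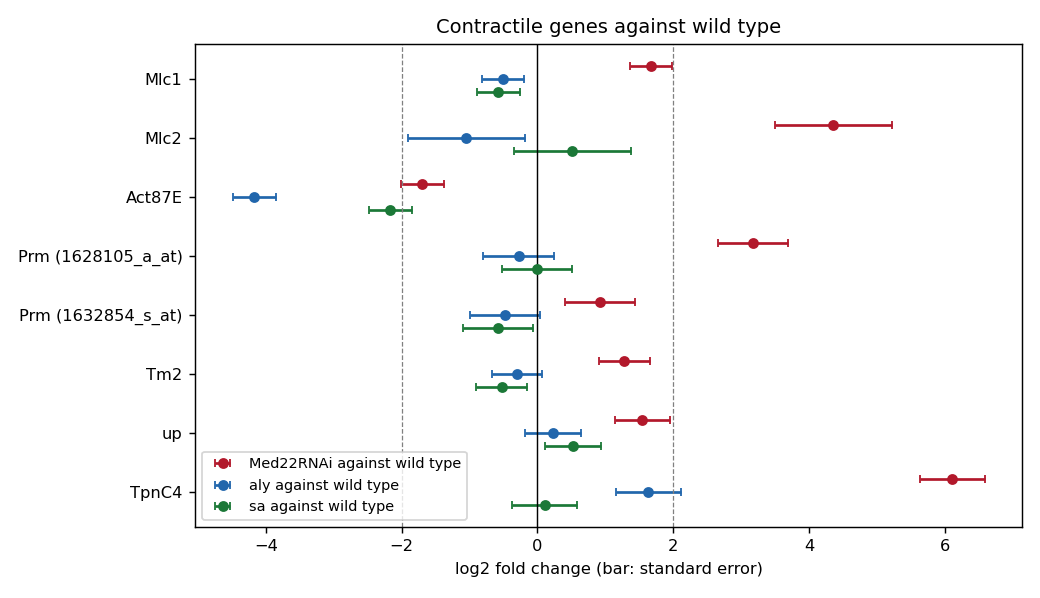
Log2 fold change against wild type (horizontal axis, bars are standard errors of the fit, dashed lines mark 4-fold) of the 8 probe sets in Med22RNAi, aly and sa. Med22RNAi is above 0 for 7 of 8, and Act87E is below 0 in all 3 genotypes, at -1.70, -4.17 and -2.17.

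The contractile genes also varied together among the arrays of 1 genotype, which is given as a description, since the same spread sets the standard errors above. For this the mean of its own genotype was subtracted from each value, so that the 3 deviations of a genotype sum to 0. In wild type replicate 1 the mean deviation of the 7 genes was 0.59, with 6 of 7 genes above their genotype mean, and in wild type replicate 2 it was -0.64, with 0 of 7 above. In wild type replicate 3 it was 0.05, with 4 of 7 above.

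In sa the third replicate stood out in the same way. Its mean deviation was 0.56 with all 7 genes above their genotype mean, against -0.34 in replicate 1 and -0.22 in replicate 2, each with 1 gene above. In aly the values were 0.32 in replicate 1 (6 of 7 above), 0.15 in replicate 2 (3 of 7 above) and -0.47 in replicate 3 (0 of 7 above). In Med22RNAi they were smaller, at 0.10 (5 of 7 above), 0.16 (7 of 7 above) and -0.25 (1 of 7 above). Over all probe sets with a mean level of at least 6 the mean deviation of an array was between -0.12 and 0.07, and in wild type replicate 1 it was the lowest, at -0.12, where that of the contractile genes was the highest.

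**Figure D3:**
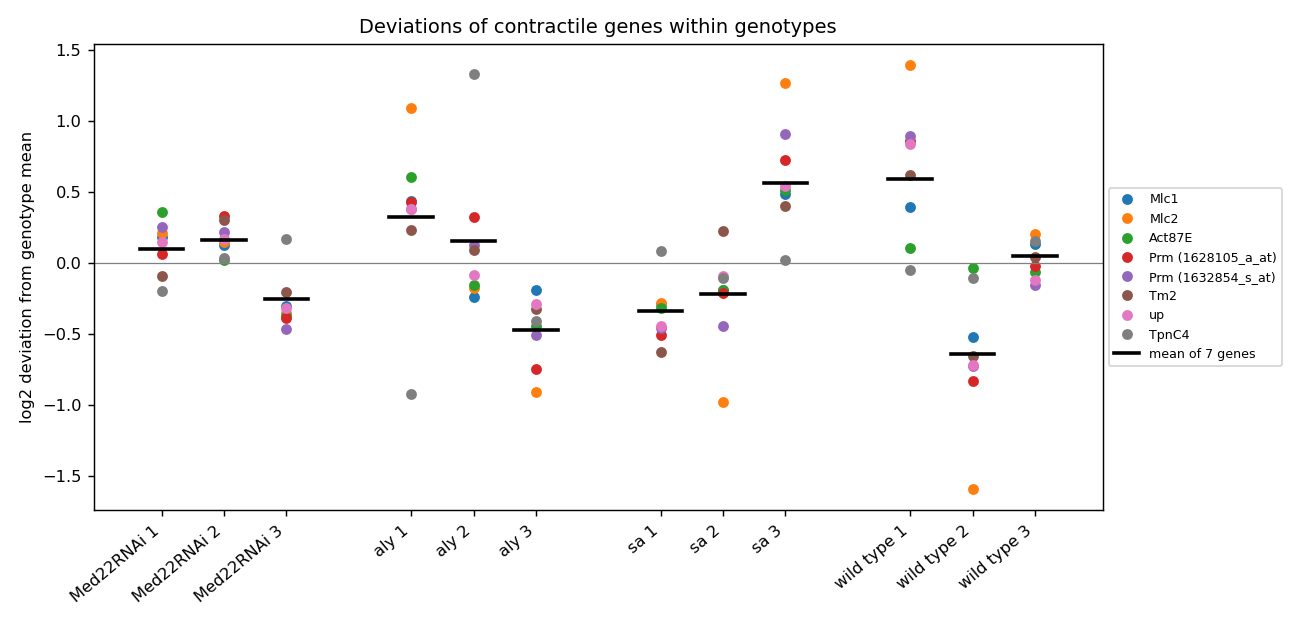
Deviation of each contractile probe set from the mean of its genotype (vertical axis, log2) on each of the 12 arrays, with the mean of the 7 genes as a black line. Most genes shift together on an array, as in wild type replicate 1 (0.59), wild type replicate 2 (-0.64) and sa replicate 3 (0.56), while TpnC4 in aly moves apart from the others.

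How closely a gene followed the others was described by the correlation of its deviations with the mean deviation of the other members over the 12 arrays, which share their libraries. It was 0.99 for Prm, 0.93 for up, 0.88 for Mlc2, 0.87 for Mlc1, 0.84 for Tm2 and 0.63 for Act87E. For TpnC4 it was -0.14, from which nothing is read, since its sa and wild type arrays were all near the lowest value and aly replicate 2 deviated most (1.33). Prm, up, both light chains and Tm2 thus shared most of their variation between replicates. Act87E, which differed from the others in its place against wild type, still varied with the others within genotypes, most visibly in sa and aly. Each member was also described by the SD of its probe set of highest mean. This SD ran from 0.18 to 0.37 in Med22RNAi, 0.29 to 1.18 in aly, 0.10 to 1.15 in sa and 0.09 to 1.50 in wild type, with TpnC4 lowest in sa and Act87E lowest in wild type. The median SD over the same probe sets was 0.28 in Med22RNAi, 0.54 in aly, 0.50 in sa and 0.64 in wild type. For all probe sets with a mean level of at least 6 the medians were 0.15, 0.14, 0.25 and 0.26.

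The 10 probe sets outside the member list whose deviations were most like the mean of the members, out of 7209 with 1 symbol and a mean level of at least 6, included several of muscle. TpnC73F, a troponin C gene, came first with a correlation of 0.96. Then came Pax (0.94), which encodes the adhesion protein paxillin, fau (0.93), Mf (0.91), which encodes the thick filament protein myofilin, and Zasp66 (0.91, and 0.89 for a second probe set), which encodes a protein of the Z disc. LanB2, a laminin chain of basement membranes, followed with 0.90, pncr003:2L, a transcript that codes for small peptides acting on the calcium pump SERCA, with 0.89, and the genes CG32944 and CG14442 with 0.88 each. Of the 7209 probe sets 18 (0.25%) had a correlation over 0.8, and the median was -0.19. Not every muscle gene varied with the members. Among other sarcomere genes Zasp52 (0.85) and Mlp84B (0.84) did. Lower values were those of sls (0.41 and 0.25 for 2 probe sets), tmod (0.34), Msp300 (0.29) and Mlp60A (0.29). Genes of integrin attachment ranged from by (0.63) and rhea (0.58) to parvin (-0.43) and stck (-0.67).

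The transcripts of neighbouring organs were set beside this variation. In wild type, replicate 1 was highest and replicate 2 lowest both for the contractile genes and for accessory gland genes (mean deviation 1.92 and -1.32). In Med22RNAi, in contrast, the accessory gland genes were highest in replicate 3 (0.91), where the contractile genes were lowest, and in sa they were lowest in replicate 3 (-0.83), where the contractile genes were highest. In aly both were highest in replicate 1, at 0.47 for the accessory gland genes. For Dup99B and Gld, the 2 measured genes of the ejaculatory duct, the highest array of a genotype was Med22RNAi replicate 1 (mean deviation 1.75), aly replicate 3 (1.38), sa replicate 2 (0.77) and wild type replicate 1 (3.35). The part of these organs in the levels of the contractile genes was not tested. Med22RNAi replicate 1 and wild type replicate 1 were also left out together, a choice made after seeing the data. The median over the 7 genes in Med22RNAi was then 1.89, and limma called 3 member probe sets higher. Med22RNAi replicate 3, the highest of its genotype for accessory gland genes, was kept. Nothing about these organs is therefore read from this fit.

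Other proteins of the sarcomere were examined as a list of 25 genes that holds no member, of which 19 were measured with 35 probe sets. Like the lists below, it was chosen with earlier results of these data known. Its counts and p-values are therefore a description and not independent of the members. By their probe set of highest mean, limma called 6 of the 19 genes higher in Med22RNAi and 0 lower (9 and 0 at an unadjusted p under 0.05). Over all probe sets the shares were 11.3% and 9.02%, and over those with a mean level of at least 6 they were 19.8% and 15.7%. Zasp52, a protein of the Z disc, was higher by 3.37 on the log2 scale (adjusted p = 0.000104 from limma), and bt, the giant kinase projectin, by 3.01 (adjusted p = 0.0206 from limma). Act88F, the actin of flight muscle, was higher by 2.75, Mf by 2.65, Zasp66 by 2.57 and tmod, which caps actin filaments, by 2.03. Dimmer probe sets of Mf (1.61) and Zasp66 (1.17) lay under 4-fold. The value of tmod lay under 4-fold without Med22RNAi replicate 2 (1.95), Med22RNAi replicate 3 (1.99) or wild type replicate 3 (1.85), with quantile normalization applied again (1.89) and with array medians set equal (1.57). A second probe set of sls, a titin-like gene, was lower in Med22RNAi by 2.47, while that of highest mean was at -0.62.

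Zasp52 read 10.33, 10.64 and 10.50 in Med22RNAi, 8.30, 8.06 and 7.68 in aly, 7.94, 7.49 and 8.24 in sa and 8.07, 6.33 and 6.96 in wild type. As for the light chains, its Med22RNAi arrays lay above all others. The projectin gene bt read 10.65, 10.73 and 9.90 in Med22RNAi, 6.50, 4.41 and 3.99 in aly, 6.85, 5.63 and 8.43 in sa and 8.44, 7.35 and 6.45 in wild type, again highest in Med22RNAi and with sa replicate 3 and wild type replicate 1 highest in their genotypes. The call of bt was lost without Med22RNAi replicate 1 (adjusted p = 0.0603 from limma), Med22RNAi replicate 2 (0.0643), wild type replicate 2 (0.0551) or wild type replicate 3 (0.0755).

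In the mutants 2 genes of this list were called lower, Msp300 in aly and sa and sls in aly. Msp300, a giant nesprin that links nuclei to the actin of muscle, was lower by 5.59 in aly (adjusted p = 0.000103 from limma) and by 4.16 in sa (adjusted p = 0.000892 from limma), and was at -1.38 in Med22RNAi (adjusted p = 0.157 from limma). The direct comparison of Med22RNAi against aly gave an adjusted p of 0.00093 from limma for Msp300, and that against sa 0.0131. The gene sls was lower in aly by 4.38 (adjusted p = 1.23e-05 from limma) and was at -1.43 in sa. Its levels with that probe set were 8.20, 8.17 and 7.73 in Med22RNAi, 4.52, 5.01 and 3.29 in aly, 7.57, 6.82 and 7.26 in sa and 8.68, 8.69 and 8.58 in wild type. With this probe set of sls, aly was thus the lowest of the 4 genotypes and wild type the highest, with no overlap for either, as for Act87E. A dimmer probe set of sls was at least 3.41-fold higher in sa than in wild type, though uncalled. Its Med22RNAi, aly and wild type arrays were all below a log2 of 3.

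In all, 1 of the 19 genes was called higher in aly (Strn-Mlck, a giant kinase known from flight muscle, by 2.07, adjusted p = 0.0142 from limma) and 2 lower, and in sa 1 was called higher (tmod, by 2.10, adjusted p = 0.000534 from limma) and 1 lower. Of all probe sets, 14.3% were called higher and 10.3% lower in aly, and 9.52% and 7.69% in sa. Among those with a mean level of at least 6, the shares were 28% and 18.3% in aly and 18.9% and 13.3% in sa. The call of Strn-Mlck was lost without wild type replicate 2 (1.46) or wild type replicate 3 (1.99). The median over the list was 0.93 in Med22RNAi, -0.47 in aly and -0.48 in sa. Its mean deviation within genotypes was highest in Med22RNAi replicate 1 (0.13), aly replicate 1 (0.30), sa replicate 3 (0.41) and wild type replicate 1 (0.62), over 13 genes with a mean level of at least 6. Except in Med22RNAi, where replicate 2 was at 0.11, these are the arrays on which the members were highest.

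**Figure D4:**
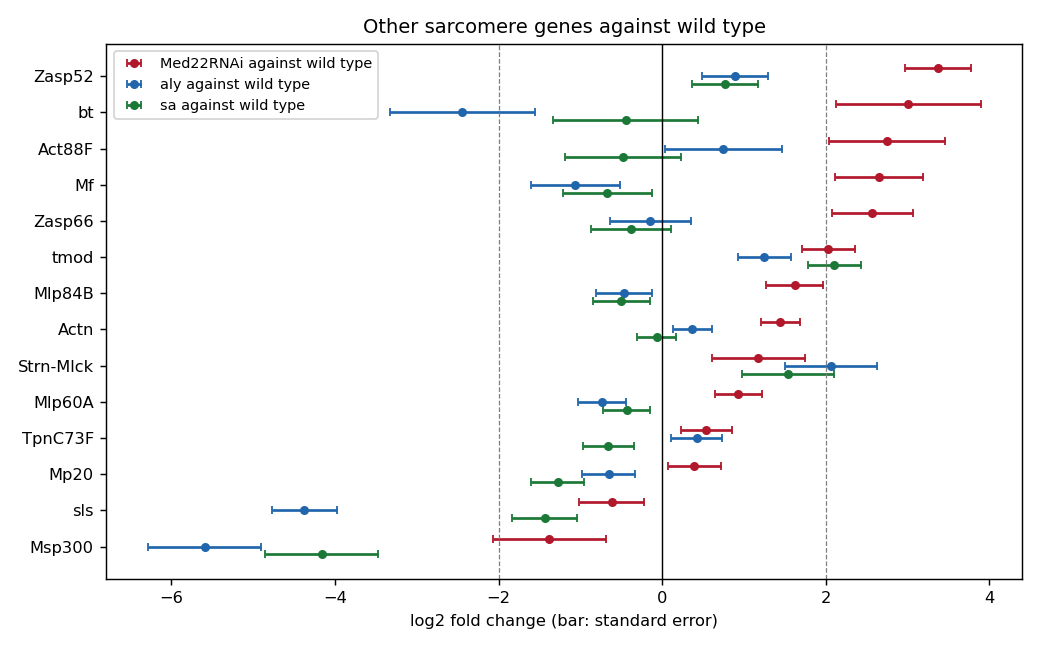
Log2 fold change against wild type (horizontal axis, bars are standard errors, dashed lines mark 4-fold) in Med22RNAi, aly and sa for the 14 other sarcomere genes with a mean log2 level of at least 4, each by its probe set of highest mean. Zasp52 (3.37) is highest in Med22RNAi, and Msp300 is lowest in aly (-5.59) and sa (-4.16).

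Genes with a part in indirect flight muscle, TpnC4 and Act88F among them, formed a further list. Apart from TpnC4, which was selected on its levels, the 5 genes of this list are also in the sarcomere list. Their calls are therefore those given above. In Med22RNAi 2 of the 5 were called higher (Act88F, and Mf by its probe set of highest mean), against 11.3% of all probe sets. Strn-Mlck was the 1 called in aly. In sa 0 were called, and Strn-Mlck, the 1 gene with an unadjusted p under 0.05 from limma, was at 1.54. Act88F read 7.22, 7.58 and 6.86 in Med22RNAi, 4.40, 5.85 and 5.39 in aly, 3.42, 4.63 and 3.91 in sa and 3.88, 3.38 and 6.13 in wild type. Its Med22RNAi arrays stood above the rest, with wild type replicate 3 next. Flightin (fln), which in flight muscle binds the thick filament, was at a mean of 3.88 in Med22RNAi, 3.86 in aly, 3.65 in sa and 4.39 in wild type. TpnC41C, another troponin C gene of flight muscle, had means under 3 in all 4 genotypes. Wild type replicate 3 stood apart for these genes, as for Act88F, at 5.92 for fln, against 3.72 and 3.53 on the other wild type arrays, and at 4.57 for TpnC41C, against 2.15 on both. On the Med22RNAi arrays TpnC41C was at 2.15 throughout and fln at 3.72 to 4.19, which overlapped with wild type.

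Among 9 genes of calcium handling and energy supply, 1 was called higher in Med22RNAi (Orai, a store-operated calcium channel, by 2.21, adjusted p = 8.22e-07 from limma) and 0 lower, though 2 were lower at an unadjusted p under 0.05, with SERCA, the pump of the sarcoplasmic reticulum, at 0.36. Orai lay under 4-fold with quantile normalization applied again (1.94) and with array medians set equal (1.75). The transcript pncr003:2L, which is outside this list, was higher in Med22RNAi by 2.34 (adjusted p = 0.000465 from limma). In aly Itpr, the IP3 receptor, was higher by 2.86 (adjusted p = 8.87e-07 from limma). The sodium-calcium exchanger gene Calx was lower in aly by 2.57 (-1.93 with array medians set equal) and in sa by 2.84. It read 7.04, 7.77 and 7.06 in Med22RNAi, 5.25, 4.58 and 4.50 in aly, 4.63, 4.28 and 4.62 in sa and 7.38, 7.84 and 6.83 in wild type. Here Med22RNAi overlapped with wild type, and aly and sa lay below both. A dimmer probe set of SERCA was called lower in aly and in sa, at least 3.37-fold in each. Both calls were lost with a floor at a log2 of 4 (-0.76). Of all probe sets, 11.3% were called higher and 9.02% lower in Med22RNAi. The shares were 14.3% and 10.3% in aly and 9.52% and 7.69% in sa. The same shares stand beside the counts of each list below.

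The genes that direct muscle formation gave little signal. Of 6 measured, nau, Hand, bap and ara had means under 3 in every genotype and Him had means of 2.12 to 3.18. The mesodermal factor gene twi was the 1 with signal, at a mean of 6.32 in Med22RNAi, 4.72 in aly, 7.58 in sa and 8.66 in wild type. It was lower by 2.34 in Med22RNAi and by 3.94 in aly (adjusted p = 5.49e-05 and 1.21e-06 from limma), opposite to Mlc1 and Mlc2 in Med22RNAi. Of 8 genes of myoblast fusion, Vrp1, which binds the actin regulator WASp, was called higher in Med22RNAi, by 2.26, which was 1.85 with quantile normalization applied again and 1.80 with array medians set equal. In aly and sa limma called 0 of the 8, with 1 higher in aly and 1 higher and 1 lower in sa at an unadjusted p under 0.05.

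Integrins and their linkers hold muscle to its surroundings. Of 8 such genes 2 were called higher in Med22RNAi, namely if, an integrin alpha subunit, by 3.61 (adjusted p = 9.61e-06 from limma) and rhea, which encodes talin, by 2.24, against 19.8% of the probe sets with a mean level of at least 6. With array medians set equal rhea was at 1.78, under 4-fold. Ilk, an integrin-linked kinase, was the 1 called in aly, higher by 2.14 (1.77 with quantile normalization applied again), and limma called 0 in sa, with 5 higher at an unadjusted p under 0.05. Of 10 genes of the basement membrane, a sheet of matrix around muscle and other tissues, 6 were called higher in Med22RNAi, among them the laminin chain LanA (3.99), Pxn (3.26) and the collagen genes Col4a1 (2.92) and vkg (2.80), against 19.8% of the probe sets with a mean level of at least 6. The perlecan gene trol was at 1.40 with its probe set of highest mean, while 2 of its dimmer probe sets were at 3.55 and 3.38. In sa 2 were called higher, LanA (2.67) and Pxn (2.63), and in aly 0, with 5 higher at an unadjusted p under 0.05 from limma. Ndg, which encodes nidogen, was called lower in all 3, at least 3.48-fold in each. With a floor at a log2 of 4 Ndg was at -0.87 and uncalled in Med22RNAi (adjusted p = 0.0523 from limma), aly (0.0523) and sa (0.0553). It also lay under 4-fold without wild type replicate 3 in Med22RNAi (-1.84) and aly (-1.98), and in aly with array medians set equal (-1.67). The summed signal of the basement membrane list was 10660 to 13630 in Med22RNAi, 3308 to 5485 in aly, 5174 to 5710 in sa and 1967 to 2536 in wild type. Wild type was thus lowest without overlap, whereas for both light chains it overlapped with aly and sa.

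Actin-based genes that are not particular to muscle moved too. The median log2 fold change of the 5 measured genes was 1.85 in Med22RNAi, 1.40 in aly and 1.50 in sa. That of the 7 contractile genes was 1.67, -0.30 and -0.01. The essential light chain gene Mlc-c of non-muscle myosin was at 0.50 in Med22RNAi, 0.00 in aly and 0.71 in sa, and read 13.25 to 13.34 in Med22RNAi, 12.67 to 12.95 in aly, 13.23 to 13.70 in sa and 12.69 to 12.88 in wild type. Its replicates differed less than those of Mlc1 and Mlc2. The capping protein gene cpa was called higher in Med22RNAi (3.53), aly (2.01) and sa (2.40), and its partner cpb in aly, by 2.33. In aly the value of cpa lay under 4-fold with quantile normalization applied again (1.68), and at 1.94 to 1.99 without aly replicate 1, aly replicate 2, wild type replicate 2 or wild type replicate 3. The genes Act5C, Act42A, zip and sqh had no probe set under their symbols alone.

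Markers of other tissues did not share 1 direction with the contractile genes. Of all probe sets, limma called 11.3% higher and 9.02% lower in Med22RNAi, 14.3% and 10.3% in aly, and 9.52% and 7.69% in sa. Of 8 hemocyte genes crq, a scavenger receptor, was higher in Med22RNAi by 3.29, and in aly Hml was higher by 3.05 and srp lower by 3.15. Of 6 genes of hub and cyst cells zfh1 was called, at least 10.7-fold higher in Med22RNAi. Of 12 accessory gland genes limma called 0 in Med22RNAi or sa, with 0 also at an unadjusted p under 0.05, and 3 lower in aly, Acp36DE most, by 3.80. All 3 calls were lost in a fit of 2 genotypes only (Acp36DE adjusted p = 0.0732, antr 0.0922 and Acp26Ab 0.126 from limma). The call of antr was also lost without aly replicate 2 (0.0755) or aly replicate 3 (0.0573), and that of Acp26Ab without any 1 array of aly, wild type replicate 1 or wild type replicate 3 (0.0693 to 0.116). Dup99B was called lower in aly (-5.46) and sa (-5.89), and both calls were lost without wild type replicate 1 (adjusted p = 0.147 and 0.119 from limma). Of 8 fat body genes 2 were lower in Med22RNAi (Lsp2 by 3.15 and Npc2h by 2.52), 2 in aly (apolpp by 7.61 and Npc2h by 2.64) and 3 in sa (apolpp by 3.20 and Npc2h by 2.85 among them). Of 7 neuronal genes brp was called lower, by 3.55 in Med22RNAi and at least 15.8-fold in aly. Uncalled but higher were elav, at least 2.6-fold in Med22RNAi and 1.42-fold in aly, and nSyb, by 0.97 and 1.21. Of 5 tracheal genes serp was higher in Med22RNAi by 3.53, and verm was at least 3-fold lower in all 3 genotypes, calls that were lost with a floor at a log2 of 4 (-0.59). Of 12 germ line genes 3 were higher and 2 lower in Med22RNAi, 5 higher and 4 lower in aly and 3 higher and 3 lower in sa, with bam higher by 4.44, 5.04 and 3.73. The part of any of these in the levels of the contractile genes was not tested.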

How the data were processed

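Testis RNA of 4 genotypes was measured on 12 Affymetrix Drosophila arrays, 3 per genotype. The values deposited are log2 signals that the authors made with GCRMA, as their processing notes state, without a version. GCRMA subtracts probe background, brings arrays to 1 distribution and gives 1 value per probe set, which compresses low signals toward the lowest value. For arrays the number of replicates limits the precision. Of 18952 rows 183 control probe sets were removed. Genes were named only where the platform annotation gives a single symbol, which it does for 13647 probe sets and 11982 genes. It lists several symbols for 402 and none for 4720. No sequences or coordinates were used.

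A linear model with 1 mean per genotype was fitted to all 12 arrays in R 4.3.3 (lmFit and eBayes from limma 3.58.1), with Benjamini-Hochberg adjustment over 18769 probe sets in each comparison. A call needs a change of 4-fold, the limit the study states, and an adjusted p under 0.05. Every adjusted p here comes from this fit, except where an alternative setting is named beside it. Such a value comes from limma run under that setting. A group with no array above a log2 of 3 was set to 3, and its fold is given as a bound. The fit was tested on simulated data. Tables and figures were made in Python 3.11.15 (pandas 2.3.3, matplotlib 3.10.9).

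The members and all gene lists were chosen with earlier results of these data known. Of each list other than the members, up to 4 called genes per comparison are named, by size of change, together with the non-muscle counterparts and the 10 probe sets most like the members. fln, TpnC41C, SERCA, elav, nSyb and the factors without signal were named after their values were seen. Same-numbered arrays of different genotypes had deviations that correlated at -0.27 to 0.33 over 18 pairs, so that the numbers do not pair the arrays. Alternatives were each array left out in turn, a replicate block, fits to 2 genotypes, array medians set equal, a second quantile normalization, dim probe sets removed or floored at a log2 of 4, robust eBayes with a trend, 2-fold or an adjusted p under 0.01 as limits, and all or 1 of the probe sets of a gene.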

Additional observations from a re-analysis of the deposited data

How the results depend on the processing

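No called value changed direction. In aly the uncalled values of Mlc1 (0.14), both probe sets of Prm (0.36 and 0.16) and Tm2 (0.34) turned positive with array medians set equal, and TpnC4 in sa turned to -0.14. Among uncalled members that of Mlc2 in sa was -0.12 without sa replicate 3 and -0.28 without wild type replicate 2, and that of up in aly was -0.13 without wild type replicate 2. With a 2-fold limit limma called 6 member probe sets higher and 1 lower in Med22RNAi, 1 higher in aly, and 10, 2 and 2 other sarcomere probe sets higher in Med22RNAi, aly and sa. The share of all probe sets called at that limit is not given here, so nothing is read from these counts. With array medians set equal, 1 member was lower in Med22RNAi (Act87E, -2.16), 1 higher in aly (TpnC4, 2.28) and 0 other sarcomere probe sets higher in sa. With quantile normalization applied again, 1 member was higher in aly (TpnC4, 2.40), and 0 other sarcomere probe sets were higher in aly and 0 in sa. The 1 other sarcomere probe set called higher in aly (Strn-Mlck) was lost in a fit of 2 genotypes only and at an adjusted p under 0.01, with 0 left in each. Leaving out 1 array at a time gave 0 to 1 members higher in aly (TpnC4 at 2.10 without aly replicate 1), 0 to 1 other sarcomere probe sets higher in aly and 0 to 2 in sa, where the call of tmod was lost without sa replicate 1 (1.89), sa replicate 3 (1.93) or wild type replicate 3 (1.92). Act88F lost its call in Med22RNAi in a fit of 2 genotypes only (adjusted p = 0.0605 from limma). With the replicate block the 3 members higher in Med22RNAi remained 3 in number, and calls over all probe sets were 3812, against 3819 without it, in Med22RNAi, 4624 against 4628 in aly and 3219 against 3229 in sa. Among the listed genes the block ended only the calls of Acp26Ab and Dup99B in aly and of Dup99B in sa. Leaving out Med22RNAi replicate 1 and wild type replicate 1 together, chosen after seeing the data, gave 3 members and 5 other sarcomere probe sets higher in Med22RNAi. A call needs 4-fold, so that smaller differences, as of Tm2 and up in Med22RNAi, are uncalled by construction. Signals near the lowest value, as of TpnC4 in wild type, give bounds only.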
